A study of Mus musculus with 6 samples.

Results

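Retnlb, Ang4, Mptx1, Lyz1 and Mmp7 are 5 genes for secreted proteins of gut defence, out of 18193 genes measured on expression arrays of mouse colon. Each was represented by the probe set that is annotated to that gene alone and has the highest mean over all 6 arrays. The 5 were selected on their log2 values in these same 6 libraries, so their levels and differences are descriptions and carry no test. All libraries came from C57BL/6J mice, an inbred strain, which were female and untreated, with no genotype change or agent in any group. There were 3 libraries labelled proximal colon and 3 labelled distal colon, and by the submitters' account 3 animals each gave both regions. Age is not given in the sources used here, nor is the pairing of the numbers by animal.

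The gut lining keeps bacteria away from its cells with mucus and with proteins that secretory cells release into the crypt and the lumen. Goblet cells make mucus and some of these proteins, and in the small intestine Paneth cells at the crypt base store lysozyme, alpha-defensins and other antimicrobial proteins in granules. The colon normally has few or no Paneth cells. Retnlb encodes resistin-like molecule beta, a goblet cell protein that is induced by the type 2 cytokines interleukin 4 and interleukin 13 and by gut bacteria. Ang4 encodes a secreted ribonuclease of the angiogenin family that kills bacteria. Mptx1 encodes mucosal pentraxin, a relative of C-reactive protein made in the intestinal lining. Lyz1 encodes the lysozyme of mouse Paneth cells, while its relative Lyz2 is the lysozyme of macrophages and other myeloid cells. Mmp7 encodes matrilysin, the metalloproteinase that activates alpha-defensin precursors in mouse Paneth cells.

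Promoter sequence was taken from RefSeq (GRCm38.p6) for the 250 bases before the annotated start, and 4 of the 5 genes matched, all but Retnlb. Ang4, Mptx1 and Mmp7 are shown because the first pair was low, and Mmp7 high, in the libraries labelled proximal 2 and 3. Capitals mark matches to TATAAA (the TATA box), TTTATNG (bound by CDX factors of the gut lining) or TGANTCA (AP-1), read on both strands.
Ang4, chr14:51773591-51773840, minus strand: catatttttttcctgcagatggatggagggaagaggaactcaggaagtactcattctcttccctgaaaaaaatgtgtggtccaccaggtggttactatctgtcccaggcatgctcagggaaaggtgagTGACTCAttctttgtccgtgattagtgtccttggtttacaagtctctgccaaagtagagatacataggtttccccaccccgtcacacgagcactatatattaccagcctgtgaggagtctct
Mptx1, chr1:174330268-174330517, plus strand: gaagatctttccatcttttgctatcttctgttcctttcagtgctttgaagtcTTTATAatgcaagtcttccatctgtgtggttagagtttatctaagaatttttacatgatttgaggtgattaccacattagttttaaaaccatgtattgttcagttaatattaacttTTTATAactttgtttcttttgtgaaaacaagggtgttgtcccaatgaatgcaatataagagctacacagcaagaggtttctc
Mmp7, chr9:7691840-7692089, plus strand: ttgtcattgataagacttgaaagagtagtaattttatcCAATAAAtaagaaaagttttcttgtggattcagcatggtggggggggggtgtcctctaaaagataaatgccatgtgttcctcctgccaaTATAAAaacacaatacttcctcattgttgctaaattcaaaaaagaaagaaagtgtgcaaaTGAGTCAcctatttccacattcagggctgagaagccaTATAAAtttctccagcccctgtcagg
The Mmp7 window held TATAAA at positions -26 to -21 and -123 to -118 before the start, TGAGTCA at -63 to -57 and the CDX letters on the other strand at -212 to -206. The Ang4 window held TGACTCA at -122 to -116 and neither of the other motifs. The Mptx1 window held the reverse complement TTTATA at -82 to -77 and -198 to -193. Of 32851 such windows, 12.4% held TATAAA, 9.81% TTTATNG and 6.75% TGANTCA on either strand. Also searched were CTTTGAN for TCF factors, AGATAAG for zinc finger factors of the GATA family, CAAAGTCCA for the nuclear receptor HNF4 and the STAT6 motif, held by 13.8%, 2.74%, 0.384% and 5.85% of windows. Of these only CTTTGAN had a match in the windows shown, at -208 to -202 of Mptx1. TTTATNG and TTTATA can overlap, but no matches overlapped here, and a match is only a run of letters. The table has 2 windows for Mmp7, and the one at the gene's annotated start is shown.

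Lyz1 and Lyz2 lie next to each other on chromosome 10, and their windows are shown to compare these neighbouring relatives upstream of the start, which does not bear on what the probes bind. Capitals mark the bases that differ, or have no partner, in an alignment of the pair.
Lyz1, chr10:117292869-117293118, minus strand: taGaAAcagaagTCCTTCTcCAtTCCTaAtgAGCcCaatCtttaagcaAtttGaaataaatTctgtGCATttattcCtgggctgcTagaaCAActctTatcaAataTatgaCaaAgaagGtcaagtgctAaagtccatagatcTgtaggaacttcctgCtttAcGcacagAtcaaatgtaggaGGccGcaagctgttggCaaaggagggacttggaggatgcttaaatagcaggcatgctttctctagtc
Lyz2, chr10:117282273-117282522, minus strand: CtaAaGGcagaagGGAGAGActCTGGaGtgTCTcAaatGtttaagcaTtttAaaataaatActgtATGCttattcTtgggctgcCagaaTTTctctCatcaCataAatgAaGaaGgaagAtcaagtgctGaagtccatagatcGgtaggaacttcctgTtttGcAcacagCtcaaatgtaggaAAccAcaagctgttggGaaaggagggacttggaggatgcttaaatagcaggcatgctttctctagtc
The alignment had 200 identical bases in 252 columns (79.4%), against 46.0% for Lyz1 with Ang4 aligned the same way. Retnlb and Retnla are likewise neighbours, on chromosome 16, Ang4 lies on chromosome 14, Mptx1 on chromosome 1 and Mmp7 on chromosome 9.

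Each array gave log2 expression values made by the authors with RMA, a method that corrects, equalises and summarises probe signals. Array medians over all probe sets ran from 7.90 to 8.02. Libraries are named by label and number, because the labels do not separate the regional genes. Hoxb13, a Hox gene active at the tail end of the body, was high in proximal 1 (13.39), at 13.78 and 13.29 in distal 1 and 2, but only 6.65 in distal 3. It stood at 6.53 and 6.48 in proximal 2 and 3. As labelled, 0 of 18193 genes passed limma at adjusted p 0.05, with 554 at an unadjusted p of 0.05. A plain test with an ordinary variance per gene also called 0, with 607 at an unadjusted p of 0.05. By the design text the replicates of a label are separate animals, while which proximal and distal libraries share an animal is not given. The labelled tissue was checked by epithelial markers, with Car1, a carbonic anhydrase of colonocytes, at 13.93 to 14.75 in the 6 libraries, and Cdx2, a transcription factor of the whole intestine, at 13.30 to 14.38. Small intestinal markers were also high in proximal 2, proximal 3 and distal 3, such as Slc51a at 12.47, 12.39 and 12.05, against 5.07 to 5.94 in the other libraries. In bulk tissue, fewer cells of a type and less RNA per cell cannot be told apart.

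Retnlb followed neither the labels nor Hoxb13. It measured 14.32 in the library labelled proximal 1, 12.75 in proximal 2 and 12.84 in proximal 3. It measured 12.15 in distal 1, 13.64 in distal 2 and 14.32 in distal 3. The highest values were thus those of proximal 1 and distal 3, which were equal, and the lowest was that of distal 1. The range of 2.17 on the log2 scale corresponds to 4.50-fold. As labelled, the groups overlapped fully, with means of 13.30 ± 0.88 (SD, n = 3) in proximal and 13.37 ± 1.11 (SD, n = 3) in distal libraries. The difference of 0.07 is smaller than either SD, and its sign changed in 4 of 11 alternative settings. It ran from -0.41 without distal 3 to 0.68 without distal 1. Between distal 1 and 2 Retnlb differed by 1.49, a gap reached or passed by 52 of 18193 genes (0.286%). Between proximal 2 and 3 it differed by 0.09, a gap that 52.6% of genes reach.

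**Figure D1:**
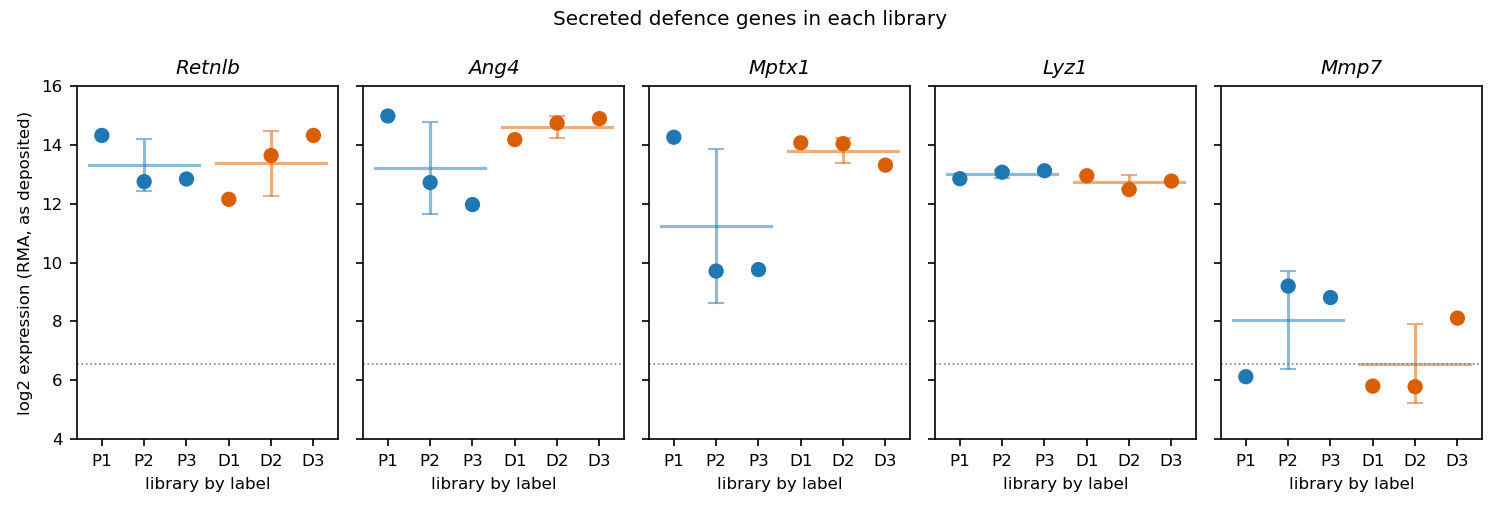
Log2 expression (vertical axis) of the 5 genes in each library, with P1 to P3 for those labelled proximal (blue) and D1 to D3 for those labelled distal (orange). Horizontal lines are label means, bars are SD (n = 3), and the dotted line at 6.54 is the lower quartile over genes and libraries. Retnlb and Ang4 are highest in P1 and D3, Mptx1 is low only in P2 and P3, Lyz1 is nearly flat, and Mmp7 is highest in P2, P3 and D3.

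Ang4 measured 14.98 in the library labelled proximal 1, 12.72 in proximal 2 and 11.97 in proximal 3. It measured 14.18 in distal 1, 14.74 in distal 2 and 14.89 in distal 3. Proximal 2 and 3 were low, the other 4 libraries were high, and the labelled groups overlapped because of proximal 1. The range was 3.01, or 8.06-fold, and the highest value lies close to 15.16, the highest in the deposited table, where differences can be understated. Label means were 13.22 ± 1.57 (SD, n = 3) in proximal and 14.60 ± 0.37 (SD, n = 3) in distal libraries, a difference of 1.38. Without the library labelled proximal 1 the difference was 2.26, and without proximal 3 it was 0.75. A less bright probe set of Ang4 put the 6 libraries in the same order, with 14.03, 10.54 and 9.85 in proximal 1, 2 and 3 and 12.48, 13.00 and 13.64 in distal 1, 2 and 3. Its range was 4.18. The probe set used is, unlike this less bright one, of a kind (x_at) whose probes can match other transcripts, and their part was not tested. Unlike Retnlb, Ang4 also differed between proximal 2 and 3, by 0.75, a gap that 59 genes (0.324%) reach.

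Mptx1 measured 14.26 in the library labelled proximal 1, 9.71 in proximal 2 and 9.76 in proximal 3. It measured 14.07 in distal 1, 14.04 in distal 2 and 13.31 in distal 3. Its range of 4.55 (23.4-fold) was the widest of the 5 genes, and it was low in the same pair of libraries as Ang4. Within the pairs it hardly varied, by 0.03 between distal 1 and 2 and by 0.05 between proximal 2 and 3. Label means were 11.24 ± 2.61 (SD, n = 3) in proximal and 13.81 ± 0.43 (SD, n = 3) in distal libraries, which overlapped through proximal 1. The difference was 2.56 over all libraries and 4.07 without proximal 1, against 1.80 without proximal 2.

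Mmp7 ran the other way. It measured 6.12 in the library labelled proximal 1, 9.20 in proximal 2 and 8.81 in proximal 3. It measured 5.80 in distal 1, 5.78 in distal 2 and 8.11 in distal 3. The 3 low values lie under 6.54, the lower quartile over genes and libraries, a range in which background can mask change, so the range of 3.42 (10.7-fold) is at best a lower bound. Label means were 8.04 ± 1.68 (SD, n = 3) in proximal and 6.56 ± 1.34 (SD, n = 3) in distal libraries, a difference of -1.48 between groups that overlapped. Without proximal 1 it was -2.44, and without proximal 2 it was -0.90. Mmp7 followed the separation of libraries by Hoxb13, low where Hoxb13 was high, with distal 3 somewhat below proximal 2 and 3.

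Lyz1 was nearly even. It measured 12.85 in the library labelled proximal 1, 13.07 in proximal 2 and 13.12 in proximal 3. It measured 12.95 in distal 1, 12.48 in distal 2 and 12.77 in distal 3. The range was 0.64 (1.56-fold), the groups overlapped, and the means were 13.01 ± 0.14 (SD, n = 3) and 12.73 ± 0.24 (SD, n = 3) in proximal and distal libraries. The 3 probe sets of Lyz1 disagreed on its level. The probe set used and a second one, at 11.68 to 12.51, are of a kind (x_at) whose probes can match other transcripts. The third, which is not of that kind, measured only 5.20 to 5.85, below the lower quartile in all 6 libraries. Lyz2 measured 12.53, 12.54 and 12.68 in proximal 1, 2 and 3, and 12.44, 12.11 and 12.22 in distal 1, 2 and 3. How much of the Lyz1 signal comes from Lyz2 transcripts was not tested, so the value named Lyz1 may hold either lysozyme. Macrophage markers stand beside it, since Lyz2 is one of them. Of 19 measured, 8 were lower in distal 1 and 2 than in proximal 2 and 3 by a limma fit of those 4 libraries (42.1%, beside 11.5% of all genes in that direction and 19.2% in either), led by C1qa (-1.40), Fcgr1 (-0.995), Mpeg1 (-0.92) and Adgre1 (-0.90). With 1 of the 4 left out, hardly any of these markers passed, and far fewer of all genes passed too. The brightest were Ctss, Lyz2 and C1qb. Their summed level ran from 15.13 to 15.37 in proximal and from 14.83 to 15.08 in distal libraries, with Cd209a lowest at 5.22 to 5.51, and their part in the Lyz1 values was not tested.

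**Figure D2:**
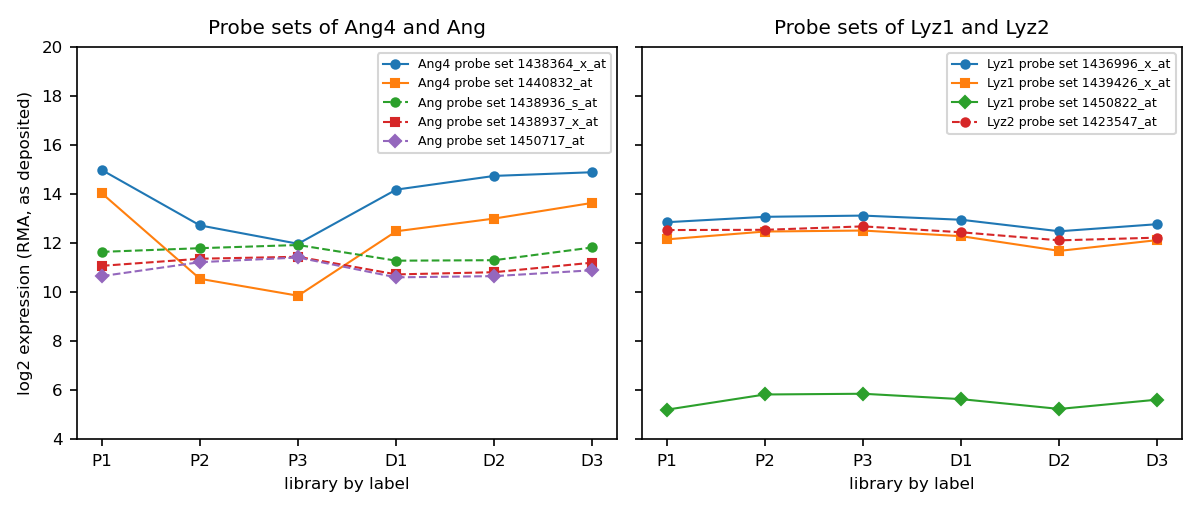
Log2 expression (vertical axis) of each probe set of Ang4 and Ang (left) and of Lyz1 and Lyz2 (right) in the libraries labelled proximal (P1 to P3) and distal (D1 to D3), with lines that only join values of 1 probe set. The probe sets of Ang4 move alike and those of Ang stay nearly flat, while 1 probe set of Lyz1 lies at 5.20 to 5.85 and the other two lie near Lyz2.

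As labelled, 0 of the 5 genes had groups that did not overlap, beside 7.33% of all genes (2.73% with the higher values in distal, 4.6% in proximal libraries). Without the libraries labelled proximal 1 and distal 3, the mean of distal 1 and 2 minus that of proximal 2 and 3 was 0.10 for Retnlb, 2.12 for Ang4 and 4.32 for Mptx1. It was -0.38 for Lyz1 and -3.22 for Mmp7. The Lyz1 value was -0.62 without distal 1 and -0.15 without distal 2. The Retnlb value changed sign without distal 2, to -0.65, and was 0.85 without distal 1. These 4 libraries were chosen with the profiles known, and 19.2% of all genes were called between them by limma, 7.71% with the higher level in distal and 11.5% with the higher level in proximal libraries.

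The library labelled distal 3 shows where the 5 genes part. Its Hoxb13 value lay 2.06% of the way from the mean of proximal 2 and 3 to that of distal 1 and 2, close to the proximal pair. Its Mmp7 value lay 27.8% of that way, its Mptx1 value 82.8% and its Ang4 value 120%, beyond the distal pair. Of 318 genes that differed by at least 2 between the pairs, distal 3 lay nearer the distal pair in 29 (9.12%), and Mptx1 and Ang4 are among them. Its gap from the mean of proximal 2 and 3 was 3.58 for Mptx1, reached by 2 of 18193 genes with Mptx1 counted, and 2.55 for Ang4, reached by 11. The gene with the wider gap was Pnliprp2, a pancreatic lipase relative that Paneth cells also make, at 4.82. For Retnlb that gap was 1.53, reached by 56 genes (0.308%), whereas for Mmp7 it was -0.90 and for Lyz1 -0.33.

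In 311 of those 318 genes (97.8%), the value of proximal 1 was closer to the distal pair. Ang4 lay 125% and Mptx1 105% of the way there, so proximal 1 exceeded distal 1 and 2 in both genes. Mmp7 lay 89.7% of the way. Retnlb stood above the mean of distal 1 and 2 by 1.43, a gap that 69 genes (0.379%) reach, and Ang4 by 0.52, which 6.94% reach. Proximal 1 and distal 3 were the 2 highest libraries for Retnlb and Ang4, an order shared by 5.89% of 17173 genes without a tie. For Mptx1 the 2 highest were proximal 1 and distal 1 (8.09% of genes), and for Lyz1 and Mmp7 proximal 2 and proximal 3 (18.2%).

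Markers of the pancreas also varied in these libraries. Of 16 measured acinar markers, 14 exceeded 10 in the libraries labelled proximal 1 and distal 1, and 3 or 4 did in each of the others. Their summed level ran from 15.29 to 16.97 in proximal and from 15.49 to 17.01 in distal libraries, and Cuzd1 was lowest in mean, at 4.30 to 8.64. Those called over the 4 libraries were Clps (2.67), Cela1 (1.74) and Sycn (1.40), and 0 to 13 were called with 1 of the 4 left out. Over all 4 libraries the share called was 18.8%, beside 19.2% of all genes. The median difference was 2.52, beside -0.045 for all genes, but the list's median level was 12.375 in distal 1 and 6.025 in distal 2. So wide a gap within a pair makes a call unlikely. The called Clps, Cela1 and Sycn were also high in distal 2, at 11.59, 13.43 and 14.51. Zg16, on the same list, is also a bright goblet cell gene. Mptx1 was highest in these 2 libraries, proximal 1 (14.26) and distal 1 (14.07), with distal 2 at 14.04. Retnlb was lowest in distal 1 and, equal with distal 3, highest in proximal 1. Ang4 was higher in proximal 1 than in distal 1. The part of pancreatic tissue in the values of the 5 genes was not tested.

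**Figure D3:**
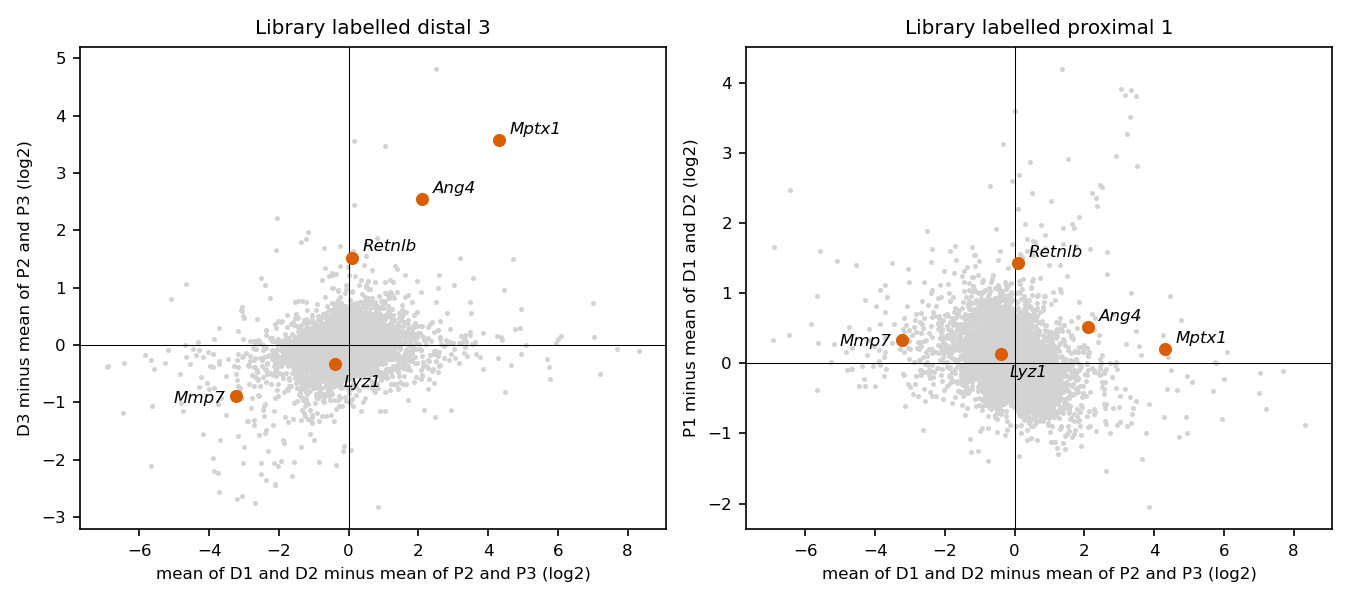
Each grey point is 1 of 18193 genes, placed by the mean of D1 and D2 minus that of P2 and P3 (horizontal axis, log2) and by the gap of the library labelled distal 3 from P2 and P3 (left) or of proximal 1 from D1 and D2 (right, log2). In the left panel Mptx1 (3.58), Ang4 (2.55) and Retnlb (1.53) stand high, and Retnlb also does in the right panel (1.43).

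Likeness between genes was measured as the root mean square difference over the 6 libraries after subtracting each gene's own mean, among 12970 genes. It describes these libraries, which share animals, and carries no test. Nearest to Retnlb were Grpr, the receptor of gastrin-releasing peptide, at 0.23 on the log2 scale, Calcb, which encodes a neuropeptide related to calcitonin, at 0.26, and Gsdmcl-ps, a gasdermin pseudogene, at 0.33. The own deviation of Retnlb was 0.82 by the same measure. Grpr measured 8.56, 6.45 and 6.41 in proximal 1, 2 and 3, and 6.27, 7.58 and 8.20 in distal 1, 2 and 3. Like Retnlb, it was lowest in distal 1 and high in proximal 1 and distal 3. Its values in proximal 2, proximal 3 and distal 1 lie under 6.54, the lower quartile over genes and libraries, where their order says little.

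Nearest to Ang4 were Fam221a (0.52), the sialyltransferase St3gal4 (0.55) and the glutamate transporter Slc1a1 (0.56), against an own deviation of 1.16. In distal 3 none of the 3 came as near its highest value as Ang4 did. Nearest to Mptx1 were the sialyltransferase St3gal6 (0.72), the pancreatic colipase gene Clps (0.81) and the protease Capn13 (0.83), against 1.99. St3gal6 measured 13.67, 10.21 and 10.17 in proximal 1, 2 and 3, and 13.45, 13.34 and 11.71 in distal 1, 2 and 3, so that in distal 3 it lay lower than Mptx1. Ang4 stood at 0.99 from Mptx1, at rank 7 among the genes nearest to Mptx1. It stood at 0.90 from Retnlb, more than the own deviation of Retnlb (0.82), and at rank 10149 of the 12970 genes compared.

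Nearest to Mmp7 were Fabp6, the bile acid binding protein of the ileum, at 0.10, the gasdermin Gsdme at 0.23 and Lrrtm1 at 0.25, against 1.44. Fabp6 measured 10.35, 13.33 and 13.06 in proximal 1, 2 and 3, and 10.03, 10.24 and 12.28 in distal 1, 2 and 3. Nearest to Lyz1 were Rnls (0.01), Avpi1 (0.03) and Ubtd1 (0.04), against 0.21, a range so narrow that many genes come close.

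**Figure D4:**
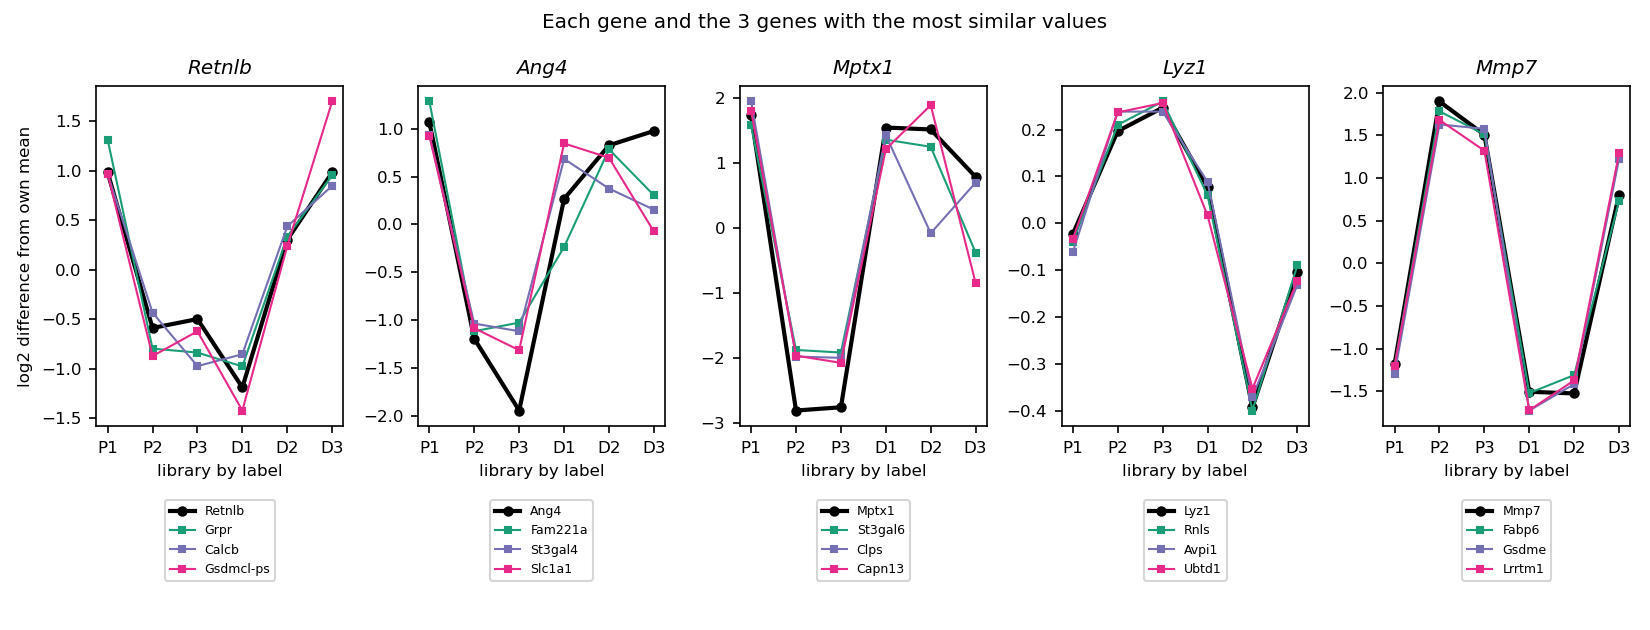
Log2 difference from each gene's own mean (vertical axis, scaled per panel) in the libraries labelled proximal (P1 to P3) and distal (D1 to D3), for each of the 5 genes (black) and the 3 genes nearest to it. Lines only join values of 1 gene. The panel of Mmp7 shows Fabp6 at a distance of 0.10, and that of Retnlb shows Grpr at 0.23.

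Retnla, a resistin-like protein of macrophages and other cells, measured 11.23, 10.52 and 10.95 in proximal 1, 2 and 3, and 10.44, 10.51 and 12.46 in distal 1, 2 and 3. Distal 3 was thus its highest library, by 1.73 over the mean of proximal 2 and 3, a gap that 42 genes reach. Ang, the widely expressed angiogenin, was lower in distal 1 and 2 than in proximal 2 and 3 by 0.57 (SE 0.11, limma adjusted p = 0.0254 over 4 libraries). Its sign was opposite to that of Ang4. Ang was the only one called of 9 measured relatives in the angiogenin and ribonuclease A family (11.1%, beside 19.2% of all genes). It lost the call without proximal 2, proximal 3 or distal 2. Rnase1, the pancreatic ribonuclease of that family, was high in proximal 1 (12.02) and distal 1 (12.20) and at 6.03 to 7.59 elsewhere. Of 6 pentraxins 0 were called, of 6 lysozyme relatives 0 and of 2 resistin relatives 0, but 5 of the pentraxins and 3 of the lysozyme relatives had means below the lower quartile, where little can be called. Lyz2 differed by -0.34 (SE 0.15, limma adjusted p = 0.183). Without distal 1, 2 pentraxins were called. Mptx2 was not analysed here.

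Of 20 other metalloproteinases and their tissue inhibitors, 3 were called over the 4 libraries (15%, beside 19.2% of all genes). Of these, 1 had its higher level in distal 1 and 2. The median difference was 0.07, beside -0.05 for all genes. Mmp9 is a gelatinase of neutrophils and other cells. It was lower in distal 1 and 2, at -2.38 on the log2 scale (SE 0.33, limma adjusted p = 0.0103). Mmp13, a collagenase, was lower too, at -1.84 (SE 0.24, limma adjusted p = 0.00835), the same sign as Mmp7. The inhibitor Timp4 was higher, at 2.10 (SE 0.24, limma adjusted p = 0.00578). Quantile normalization and median centring called 6, 4 of them higher in distal 1 and 2, and the calls were lost without proximal 2 or proximal 3.

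Of 39 listed Paneth cell markers 12 were measured beside the 5 genes. Of these 12, 4 were called over the 4 libraries, 2 in each direction (33.3%, beside 19.2% of all genes). Defa39, an alpha-defensin of the kind Mmp7 activates, measured 6.82, 10.98 and 10.44 in proximal 1, 2 and 3, and 7.10, 6.53 and 8.75 in distal 1, 2 and 3. Its highest values were in the same 3 libraries as those of Mmp7, but its value in distal 3 was intermediate, well below proximal 2 and 3. Over the 4 libraries Defa39 differed by -3.90 (SE 0.26, limma adjusted p = 0.00141). The alpha-defensins Defa31, at 8.56 to 9.89 over the 6 libraries, and Defa3, at 6.86 to 7.46, were not called. The alpha-defensins share sequence, so their probe sets can bind relatives. Fgfrl1, a fibroblast growth factor receptor relative, was also lower in distal 1 and 2 than in proximal 2 and 3 (-1.94). Pnliprp2 (2.51) and Pla2g2a, a bactericidal phospholipase (1.66), were higher, the direction of Ang4 and Mptx1. The median difference was -0.01. The list's summed level ran from 15.06 to 15.76 in proximal and from 15.06 to 15.47 in distal libraries, with Nupr1, Ccl6 and Itln1 brightest and Habp2 lowest, at 5.97 to 6.33, and its part in the values of the 5 genes was not tested. With 1 of the 4 libraries left out, 1 to 3 were called.

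Of 43 other secreted defence proteins, 14 were called over the 4 libraries (32.6%, beside 19.2% of all genes), 9 of them higher in distal 1 and 2, with a median difference of 0.05. Sprr1a is a cornified envelope protein that also responds to gut bacteria. It was lower in distal 1 and 2 than in proximal 2 and 3 (-4.56, SE 0.38, limma adjusted p = 0.00245). In distal 3 it measured 12.78, and in proximal 1 it measured 9.94. Higher were Defb45, a beta-defensin (2.87), the phospholipase Pla2g5 (2.10) and Pla2g2a (1.66). With 1 of the 4 libraries left out 0 to 5 were called, with 0 without proximal 2 or proximal 3.

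Genes of the type 2 response and of bacterial sensing, stand here because some of them induce Retnlb. Of 33 measured type 2 genes 8 were called (24.2%, a share near the 19.2% of all genes), 4 each way, with a median of -0.03. The mast cell protease Mcpt2 (-2.26) was lower in distal 1 and 2 than in proximal 2 and 3. So were the chemokines Ccl8 (-1.71) and Ccl11 (-0.97), and the lipoxygenase Alox15 (1.25) was higher. In distal 3 Mcpt2 measured 8.38, its highest value, with Ccl8 at 10.11 and Ccl11 at 10.05. Of the cytokines on the list some were near the bottom of the scale, with Il4 at 4.73 to 5.15, Il13 at 4.26 to 4.50 and Il5 at 4.35 to 4.68 in the 6 libraries. Il33 (8.58 to 9.17) and Tslp (7.67 to 7.96), released by lining and stromal cells, lay above the lower quartile. Of 27 genes of bacterial sensing and the interleukin 22 response, 8 were called (29.6%), 5 of them lower in distal 1 and 2, with a median of -0.19. The Toll-like receptors Tlr2 (-1.70) and Tlr5 (-1.66), which sense bacterial lipoproteins and flagellin, and the adaptor Ticam1 (-0.95) were lower, and Tlr4 (0.93), which senses lipopolysaccharide, was higher. With 1 of the 4 libraries left out, 0 or 1 of the type 2 genes and 0 to 3 of the sensing genes were called. The type 2 list's summed level was 15.95, 15.09 and 15.07 in proximal 1, 2 and 3. It was 15.26, 15.58 and 15.94 in distal 1, 2 and 3, so it was highest in the same pair of libraries as Retnlb. The sum is of unlogged values, so bright genes weigh most, such as Clca1 (13.90 to 14.75) and Pla2g4c (9.72 to 13.74). The probe sets of Il4ra and of Tlr4 did not all have the same sign.

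**Figure D5:**
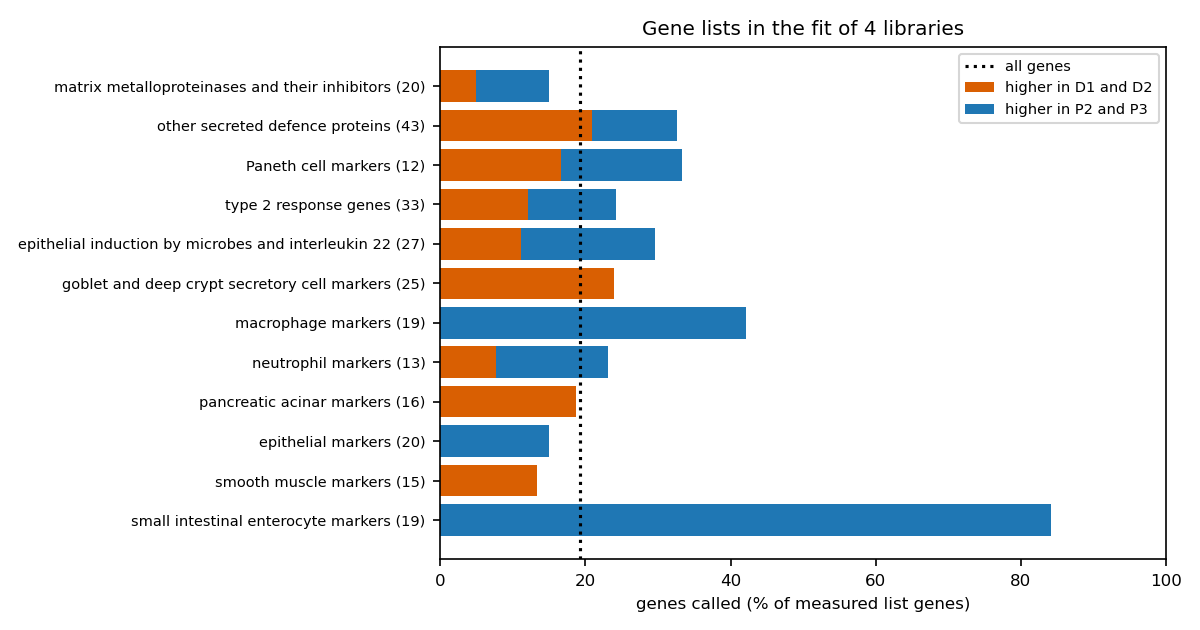
Share of measured genes of each list called by limma over 4 libraries (horizontal axis, percent), split into genes higher in the libraries labelled distal 1 and 2 (orange) and in proximal 2 and 3 (blue), with the number measured in brackets. The dotted line is the share of all genes, 19.2%. Small intestinal enterocyte markers reach 84.2%, all higher in P2 and P3, and other secreted defence proteins reach 32.6%.

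Goblet cells are a main source of Retnlb. Of 25 goblet and deep crypt secretory markers 6 were called over the 4 libraries (24%, beside 19.2% of all genes), all with the higher level in distal 1 and 2 (7.71% of all genes), led by Rep15 (1.53), Capn9 (1.18), the transcription factor Creb3l1 (0.99) and Ern2 (0.89). The brightest were Reg4, Agr2 and Zg16. Over the 6 libraries the mucin gene Muc2 lay between 13.94 and 14.40 and Tff3, a trefoil peptide, between 14.16 and 14.39, both near the top of the scale. Other markers of the list varied more, with Capn9 between 9.79 and 11.59, Rep15 between 10.80 and 12.35 and Gfi1 between 9.43 and 10.74. The summed level of these markers ran from 17.78 to 18.07 in proximal and from 17.84 to 17.98 in distal libraries. With proximal 2 or proximal 3 left out 0 were called. Neutrophil markers were low, with Mpo at 4.17 to 4.81 and a summed level of 9.63 to 10 in proximal and 9.23 to 9.71 in distal libraries. Of 13 measured 3 were called (23.1%, beside 19.2% of all genes), Mmp9, Prtn3 (-0.84) and Camp (0.68). S100a9 was the second brightest, and fewer were called with 1 of the 4 left out. The part of goblet cell number in the values of the 5 genes was not tested.

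Small intestinal enterocyte markers were high in the same libraries as Mmp7. Of 19 measured, 16 were called higher in proximal 2 and 3 than in distal 1 and 2 (84.2%, beside 11.5% of all genes). In the other direction 0 were called, and the median difference was -1.41. They were led by the bile acid exporter subunit Slc51a (-6.93), the apolipoprotein Apoa1 (-5.67), the phosphatase Alpi (-4.29) and the cholesterol transporter Npc1l1 (-4.19). Their summed level was 15.33, 16.61 and 16.58 in proximal 1, 2 and 3, and 15.29, 15.49 and 16.32 in distal 1, 2 and 3, so the 3 highest libraries came in the same order as for Mmp7. Fabp2, Mgam and Mep1a were brightest and Slc10a2 lowest, and Fabp6, the gene nearest to Mmp7, is on the list. Between 6 and 11 were called with 1 of the 4 libraries left out. The part of ileal tissue or of ileum-like cells in the Mmp7 values was not tested. Of 15 smooth muscle markers 2 were called (13.3%, beside 19.2% of all genes), Synm (0.98) and Des (0.62). The brightest were Mylk, Tpm2 and Tagln, and the calls were lost with any 1 of the 4 libraries left out. Of 20 epithelial markers 3 were called (15%, beside 19.2% of all genes), Cdx2 (-0.88), Car1 (-0.55) and Krt20 (-0.49). The brightest were Krt19, Lgals4 and Krt8, and fewer were called with 1 of the 4 left out.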

How the data were processed

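The series holds 6 single-colour arrays of mouse colon RNA. Per the labels' protocols, RNA was extracted with Trizol and amplified and biotin-labelled with NuGEN Ovation kits. Per the submitters' processing notes the authors used RMA in Partek 6.5, and the table's values were read as deposited log2 expression, from that note and their range of 2.91 to 15.16. RMA equalises the arrays, which hides any change common to nearly all genes. Of 45101 probe sets, 34945 had 1 gene, 932 several and 9160 none, and 64 were controls. Symbols were updated by gene identifier with a RefSeq table of GRCm38.p6, and the brightest probe set stood for each of 18193 genes.

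The comparisons used limma 3.58.1 under R 4.3.3 (lmFit, eBayes, two-sided tests, p adjusted by Benjamini-Hochberg across the 18193 genes, threshold 0.05), as labelled and over 4 libraries without proximal 1 and distal 3. The fit was tested on simulated data. Members, the 16 gene lists (285 of 356 entries measured), tests and alternatives were chosen with earlier results of these data known. The rule for named genes took the members, the 3 nearest genes of each (mean above the lower quartile, no predicted or clone names), called and closest relatives, the 4 largest called differences per list, the 3 brightest markers per cell type, and Hoxb13. Outside it, Muc2, Tff3, Il4, Il5, Il13, Il33, Tslp, Gfi1, Rnase1, Cd209a, Cuzd1, Habp2, Slc10a2 and Mpo were chosen after their values were seen. Alternatives were quantile normalization, median centring, mean of probe sets, a level filter, the replicate number as a block, ordinary variances, a stricter threshold and leaving out each library. The number of arrays limits the precision.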

Additional observations from a re-analysis of the deposited data

How the results depend on the processing

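As labelled, limma called 0 genes under every alternative run, including the replicate block (0 called, 1065 at an unadjusted p of 0.05, smallest adjusted p = 0.404). Deviations from the label means correlated across genes at 0.677 for number 1, -0.448 for number 2 and 0.678 for number 3. Libraries of unlike number correlated as strongly, with 0.728 for proximal 2 and distal 3 and -0.767 for proximal 1 and distal 3. These values therefore cannot tell whether equal numbers share an animal. Over 4 libraries, which share only 1 number and so allow no block, 3494 genes were called, 1112 at an adjusted p of 0.01 and 146 to 1633 with 1 library left out. Of the called genes 40.1% were higher in distal 1 and 2, against 50.3% under quantile normalization and 54.7% under median centring. Among genes above the median level, 9 other defence proteins, 2 Paneth markers and 5 type 2 genes were called, beside 3240 of all 9094 such genes. At an adjusted p of 0.01 there were 8 defence proteins, 4 Paneth markers and 1 type 2 gene, beside 1112 of all 18193 genes. With 1 library left out the ranges were 0 to 5 defence proteins, 1 to 3 Paneth markers and 0 to 1 type 2 genes. The fit then has 1 lone library in a group, which is assumed to vary like the others. Fewer genes or libraries enter these fits by construction, and no other cause was tested. The differences of Ang4, Mptx1, Lyz1 and Mmp7 kept their sign in all settings run, where Mmp7 has none under the level filter, and that of Retnlb did not.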

Other observations

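Some other genes tied to the type 2 response or to secretory cells were, like Retnlb, highest in proximal 1 and distal 3, though the order of the other libraries differed. They were picked after their values were seen. Itln1, an intelectin that binds bacterial sugars, measured 12.42, 10.94 and 10.28 in proximal 1, 2 and 3, and 8.96, 10.83 and 12.31 in distal 1, 2 and 3. Pla2g4c, a cytosolic phospholipase, measured 13.62, 10.81 and 9.72 in proximal 1, 2 and 3, and 9.76, 12.86 and 13.74 in distal 1, 2 and 3. Rnase2a, an eosinophil-type ribonuclease, stood above 6.54 only in distal 3 (7.56), with 5.59 in proximal 1 and 3.99 to 4.18 in the others. Proximal 1 and distal 3 were the 2 highest libraries in 7 of 30 type 2 genes without a tie (23.3%), in 6 of 23 goblet and deep crypt markers (26.1%) and in 7 of 40 other secreted defence proteins (17.5%). It was so in 3 of 10 Paneth markers, in 1 of 27 genes of bacterial sensing and the interleukin 22 response (3.7%), in 0 of 19 macrophage markers and in 5.89% of all genes. Among the 7 type 2 genes Il4, Il25 and Pou2f3 stayed under 6.54, the table's lower quartile, in all 6 libraries, where order says little. The lists share genes, Itln1 among them, and were not tested.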
